A study of Homo sapiens with 6 samples.

Results

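The genes described here are annotated to the mitogen-activated protein kinase (MAPK) or Ras pathways, and were read in Hep3B cells kept at 20% or 1% oxygen. These pathways carry messages between the cell surface and the nucleus. Members are entries of the deposited table with an Ensembl gene ID whose deposited KEGG annotation (a catalogue of pathways) names either pathway. Of 2681 entries with values, 68 named at least 1 of these pathways. Another 19 of these were left out because they also belong to focal adhesion, actin, matrix receptor, adherens junction or cell cycle pathways, and 4 more were left out by name, which leaves 45 genes. MAPK signaling was named for 32 of the 45 and Ras signaling for 15, with 4 under both and 2 (TPBG and CNKSR2) only under the fly version of the MAPK pathway.

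Hep3B is a long-established cell line from a human liver carcinoma. The labels give 3 samples held at 20% oxygen (normoxia) and 3 held at 1% oxygen (hypoxia), for 24 hours. Every sample has the genotype label WT and also carries a treatment label of genetic modification, which the labels do not explain further, and the extraction text speaks of subclones. Whether the samples came from separate cultures is not labelled. The p-values therefore rest on the spread among these 6 samples, and that spread may be technical. In bulk RNA, fewer cells of a kind and less RNA per cell cannot be told apart.

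In MAPK signaling, a ligand such as a growth factor or a cytokine binds a receptor. Adaptors recruit exchange factors that load Ras or a related GTPase with GTP. A relay of 3 kinase tiers then ends in a MAP kinase: ERK, JNK or p38. Active MAP kinases phosphorylate further kinases and transcription factors such as FOS and JUN. Dual-specificity phosphatases (DUSPs) remove the phosphates from MAP kinases, and several DUSP genes are themselves induced by the kinases that their products switch off. In liver cells these pathways are known for their part in growth, stress responses and regeneration.

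The deposited table holds only entries that the authors had already selected as changed: in the authors' deposited table false discovery rates reach 0.00999 at most, and absolute log2 fold changes start at 1.00. Pathway genes that are not listed may have changed little, not at all, or not been expressed, and are not analysed here. Over the 2675 entries tested, normoxia libraries held 5474340 to 6128735 counts and hypoxia libraries 9904132 to 10132729, which are sums over selected entries and not library depths. The members took 46774 to 50849 counts of each normoxia library and 117607 to 125383 of each hypoxia library. Among marker genes of liver cells, 6 of 13 had an entry (AHSG, TF, ALB, FGB, AFP and APOB), 2 higher and 4 lower at 1% oxygen, with summed levels of 1221 to 1507 normalized counts in normoxia and 846 to 897 in hypoxia. Markers of other cell types had 5 of 7 entries for bile duct cells (1422 to 2253 normalized counts in normoxia, 5245 to 8712 in hypoxia), 2 of 6 for endothelium (187 to 361, and 1593 to 3822), 1 of 5 for leukocytes (CD68, 2093 to 2559, and 7985 to 10558) and 0 of 6 for fibroblasts. Their part in the results was not tested.

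Of the 45 members, 35 (77.8%) were higher at 1% oxygen and 10 (22.2%) were lower. All 45 passed the test (edgeR quasi-likelihood, Benjamini-Hochberg adjusted p at a threshold of 0.05), which adds no support because 100% of the 2675 tested entries did. Of all tested entries, 56.7% were higher and 43.3% lower. With size factors taken as median ratios over the listed entries, that split became 46.3% higher (997 entries) against 1157 lower, and the members' split became 25 higher against 10 lower. The members' median log2 fold change was 1.39, beside 1.11 over all entries, and 10 members (22.2%) rose by more than 2 on the log2 scale, beside 18.5% of all entries. A fall beyond -2 was seen in 2 members, 4.44%, beside 6.13% of all entries. Both rest on few reads: hypoxia replicates 1 to 3 held 13, 3 and 19 counts of ANGPT1 and 5, 20 and 6 of HSPA6. Normalized counts (counts divided by a scale per library) did not overlap between the oxygen groups for any of the 45 members, which also held for 99.6% of all entries. These shares describe a list and no test compares it with the other entries.

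**Figure D1:**
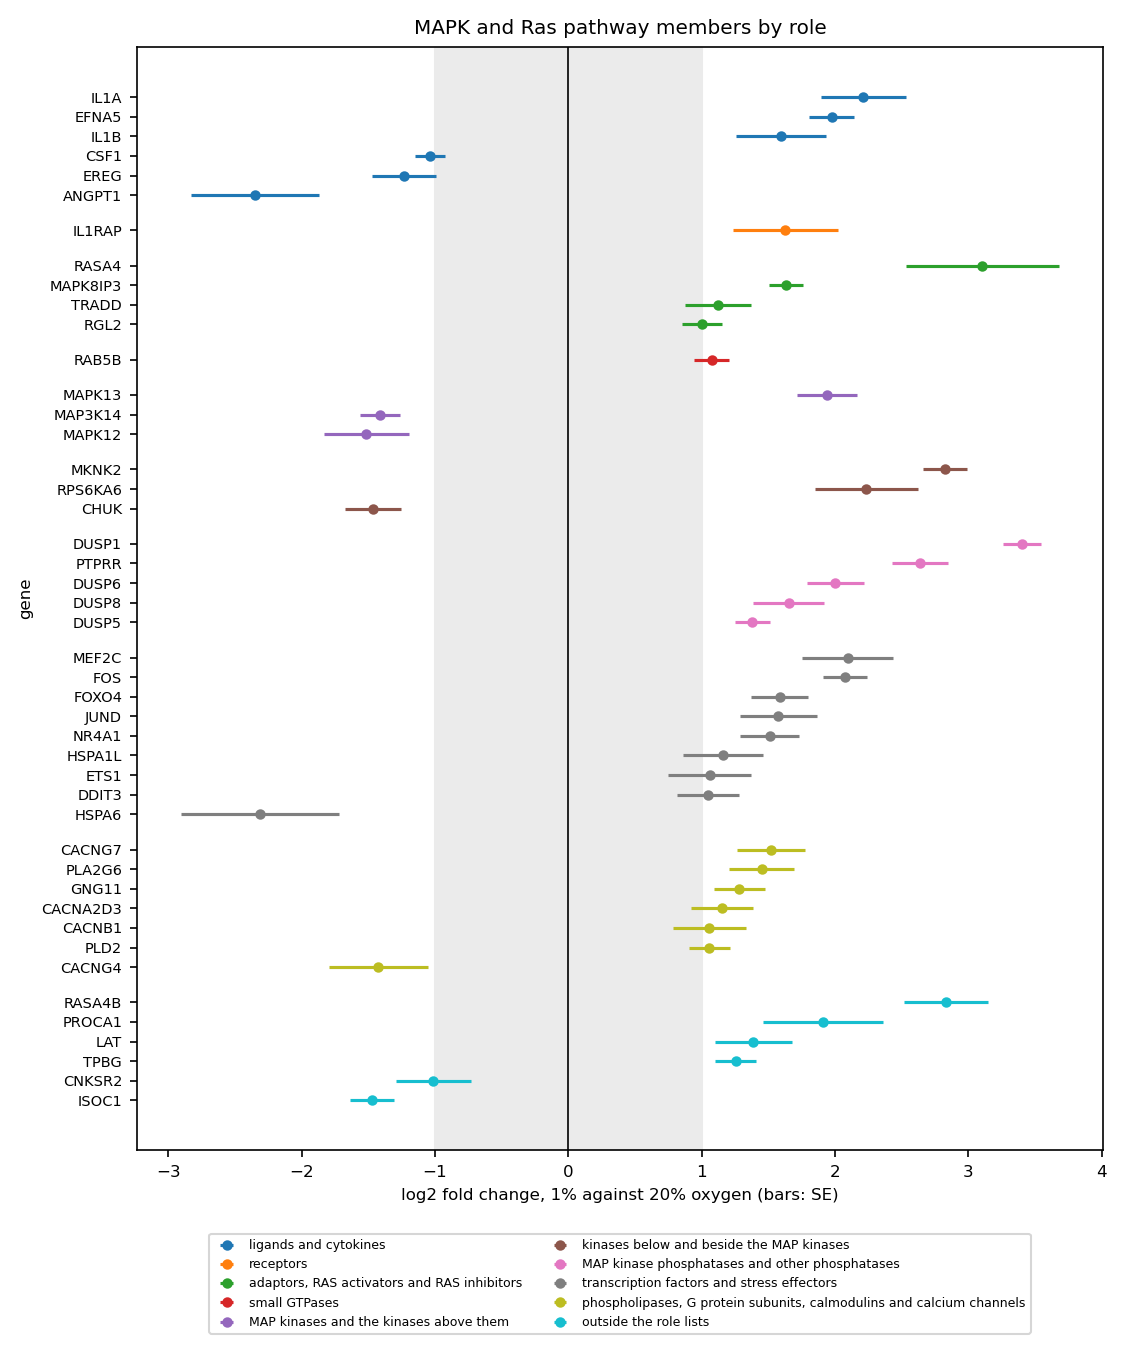
Log2 fold change at 1% against 20% oxygen (x axis) of the 45 members (y axis), coloured by role. Points are edgeR estimates, bars are SE, and the grey band from -1 to 1 marks the range in which the authors listed no entry. The 5 phosphatases all lie to the right, led by DUSP1 at 3.40, and ligands lie on either side.

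Within each oxygen group, libraries differed in a way that follows base composition. Deviations were taken from the mean of each oxygen group, so a GC trend between the groups could not appear in them. Median GC content was 54.5% for members higher at 1% oxygen and 49.9% for lower members. Over all entries with a GC value, it was 54.9% and 47.6%. The part of GC content in the fold changes was not tested. Normoxia replicate 1 and hypoxia replicate 2 read GC-rich transcripts higher than the other libraries of their group, by 0.21 and 0.25 on the log2 scale for each 10 points of GC content, over 2396 entries. The slope was -0.02 and -0.19 in normoxia replicates 2 and 3 and -0.10 and -0.15 in hypoxia replicates 1 and 3. Of the 14 members under 45% GC, 11 had their lowest normoxia value in replicate 1 and 11 their lowest hypoxia value in replicate 2. Of the 22 members over 55% GC, 17 had their highest normoxia value in replicate 1 and 18 their highest hypoxia value in replicate 2. Across the 45 members, which share these libraries, the deviation from the group mean correlated with GC content at r = 0.70 in normoxia replicate 1 and r = 0.69 in hypoxia replicate 2.

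**Figure D2:**
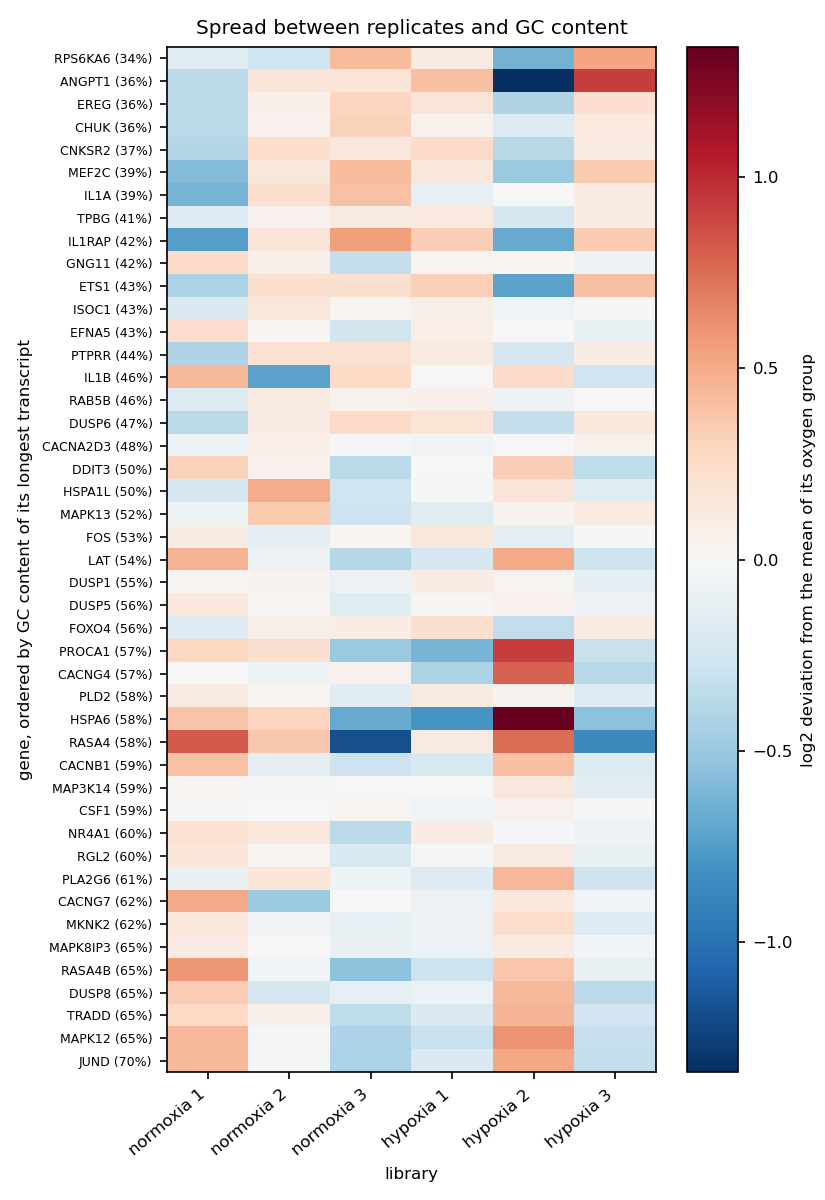
Deviation of each library from the mean of its oxygen group (colour, log2 scale) for the 45 members, ordered on the y axis by the GC content of the longest transcript, with the 6 libraries on the x axis. Normoxia replicate 1 and hypoxia replicate 2 are mostly blue at the top (low GC) and mostly red at the bottom (high GC), and normoxia replicate 3 and hypoxia replicate 3 mostly show the opposite.

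Ligands went both ways: of 6 members 3 were higher and 3 lower, beside 56.7% of all tested entries higher. The interleukin-1 genes rose from low levels. IL1A, which encodes an alarm cytokine, had 12.3, 22.5 and 25.3 normalized counts in normoxia replicates 1 to 3 and 86.5, 93.6 and 100.3 in hypoxia replicates 1 to 3 (log2 fold change 2.21, SE 0.32, adjusted p = 0.000336). The neighbouring cytokine gene IL1B had 66.2, 29.4 and 58.7 in normoxia and 155, 185 and 128 in hypoxia (1.60, SE 0.34, adjusted p = 0.00224). Every hypoxia library was above every normoxia library for either cytokine, and 99.6% of all entries had groups apart as well. EFNA5, a membrane-anchored ligand of Eph receptors, had 436, 379 and 315 normalized counts in normoxia and 1578, 1482 and 1385 in hypoxia, a 3.93-fold rise (adjusted p = 3.59e-05).

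The 3 ligands that fell act on receptor tyrosine kinases, as does EFNA5, which rose. EREG (epiregulin), a ligand of the epidermal growth factor receptor family, had 845, 1129 and 1313 normalized counts in normoxia and 517, 346 and 535 in hypoxia (fell by 1.23 on the log2 scale, SE 0.24, adjusted p = 0.00132). CSF1, the macrophage growth factor, had 4159 ± 60.2 normalized counts in normoxia and 2026 ± 71.9 in hypoxia (mean ± SD, n = 3) and had the smallest SE of any member, 0.11 on the log2 scale. ANGPT1, the activating ligand of the TEK receptor of endothelium, went from 62.4 ± 12.3 to 11.9 ± 7.82 and fell by 2.35 on the log2 scale (SE 0.48), the larger fall of these 3. The receptor side had 1 member, IL1RAP, the shared coreceptor of interleukin-1 signaling. It had 104, 197 and 257 normalized counts in normoxia and 687, 341 and 698 in hypoxia (log2 fold change 1.63, SE 0.40, adjusted p = 0.00417). The low values of IL1RAP in each group are those of normoxia replicate 1 and hypoxia replicate 2, and its transcript has 41.7% GC. So both cytokines of interleukin-1, their coreceptor and EFNA5 were higher at 1% oxygen, while EREG, CSF1 and ANGPT1 were lower.

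Adaptors and regulators of Ras had 4 members on their list, all higher, beside 56.7% of all tested entries. Their leading gene switches Ras off. RASA4 encodes a calcium-responsive GTPase-activating protein that returns Ras to its inactive state, and RASA4B is its near copy on chromosome 7. RASA4 had 1631, 1181 and 407 normalized counts in normoxia and 9065, 14080 and 4578 in hypoxia (log2 fold change 3.11, SE 0.58, adjusted p = 0.0011). RASA4B, outside the role lists, had 2181, 1424 and 996 in normoxia and 8872, 13914 and 10068 in hypoxia (2.84, SE 0.32, adjusted p = 9.94e-05). For either gene hypoxia libraries were all above normoxia libraries, and 99.6% of all entries had groups apart as well. RASA4 varied widely within each group. Of their longest transcripts, 82.4% (RASA4) and 98.2% (RASA4B) of stretches of 50 bases are found in transcripts of other genes, so reads can have been split between them in ways not given in the sources used here. Summed, the pair had 3812, 2605 and 1403 normalized counts in normoxia and 17937, 27994 and 14646 in hypoxia (log2 fold change 2.95, SE 0.40, adjusted p = 0.000244), an alternative chosen after seeing the data.

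The other 3 of this list rose less. MAPK8IP3, a scaffold that holds JNK modules and links cargo to kinesin motors, had 3449, 3194 and 2988 normalized counts in normoxia and 9437, 10804 and 9696 in hypoxia (3.11-fold, adjusted p = 2.53e-05). TRADD, the death domain adaptor of the TNF receptor, had 923, 804 and 602 in normoxia and 1442, 2249 and 1372 in hypoxia (log2 fold change 1.12, adjusted p = 0.00263). RGL2, a Ras effector that activates the GTPase Ral, had 1155, 1059 and 891 in normoxia and 2047, 2244 and 1933 in hypoxia (1.00, adjusted p = 0.000402). None of these groups overlapped, as for 99.6% of all entries. Exons of PFDN6 on the opposite strand cover 15.9% of RGL2 exons, and whether counting used strand is not given in the sources used here. The 1 small GTPase, RAB5B of early endosomes, had 2539, 3131 and 2986 normalized counts in normoxia and 6356, 5809 and 6076 in hypoxia (1.08, SE 0.13). With median-ratio size factors over the listed entries, TRADD, RGL2, RAB5B and IL1RAP kept their direction but not their call.

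In the kinase tiers, MAPK12 and MAPK13 moved in opposite directions. They encode p38 gamma and p38 delta, the less studied members of the p38 family. MAPK13 (chromosome 6, 36127809 to 36144524 in GENCODE 29 on GRCh38) had 131, 176 and 114 normalized counts in normoxia and 480, 555 and 584 in hypoxia, a rise of 1.94 on the log2 scale (SE 0.23, adjusted p = 0.000118). MAPK12 (chromosome 22, 50245450 to 50261825) had 2287, 1656 and 1260 in normoxia and 472, 882 and 469 in hypoxia (fell by 1.51, SE 0.32, adjusted p = 0.00207). Per transcript length, in the authors' FPKM (fragments scaled by transcript length and library size), MAPK12 went from 27.7 ± 6.25 to 7.86 ± 2.20 and MAPK13 from 1.55 ± 0.409 to 4.36 ± 0.426. MAPK12 thus had the higher mean level at either oxygen level. Of its longest transcript, 40.7% of stretches of 50 bases also lie in transcripts of other genes, mostly HDAC10, so its counts are uncertain.

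MAP3K14 and CHUK, neighbouring steps of the noncanonical NF-kappa B route, were both lower. MAP3K14 encodes NIK, the kinase that activates the IKK alpha kinase encoded by CHUK. MAP3K14 had 1141, 1110 and 1118 normalized counts in normoxia and 421, 467 and 377 in hypoxia (fell by 1.41 on the log2 scale, SE 0.15, adjusted p = 7.77e-05). CHUK had 739, 986 and 1179 in normoxia and 363, 307 and 381 in hypoxia (fell by 1.46, SE 0.21, adjusted p = 0.000319). The 3 normoxia libraries of MAP3K14 lay close together, while those of CHUK, at 36.3% GC, were lowest in replicate 1. An antisense gene, MAP3K14-AS1, covers 12.3% of MAP3K14 exons.

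MKNK2 had the largest rise among kinases. It encodes MNK2, which MAP kinases activate and which phosphorylates the translation factor eIF4E. MKNK2 (chromosome 19, 2037465 to 2051244) had 3089, 2695 and 2570 normalized counts in normoxia and 18653, 23096 and 17435 in hypoxia, 7.09-fold higher (log2 fold change 2.82, SE 0.16, adjusted p = 7.44e-06). In FPKM it went from 36.9 ± 1.20 to 199 ± 9.11 and from rank 2 to rank 1 of the 45 members. RPS6KA6, a ribosomal S6 kinase (RSK4), had 18.0, 16.7 and 27.1 normalized counts in normoxia and 99.6, 59.2 and 133 in hypoxia (2.24, SE 0.39, adjusted p = 0.000779), and it was the lowest member by FPKM in normoxia.

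**Figure D3:**
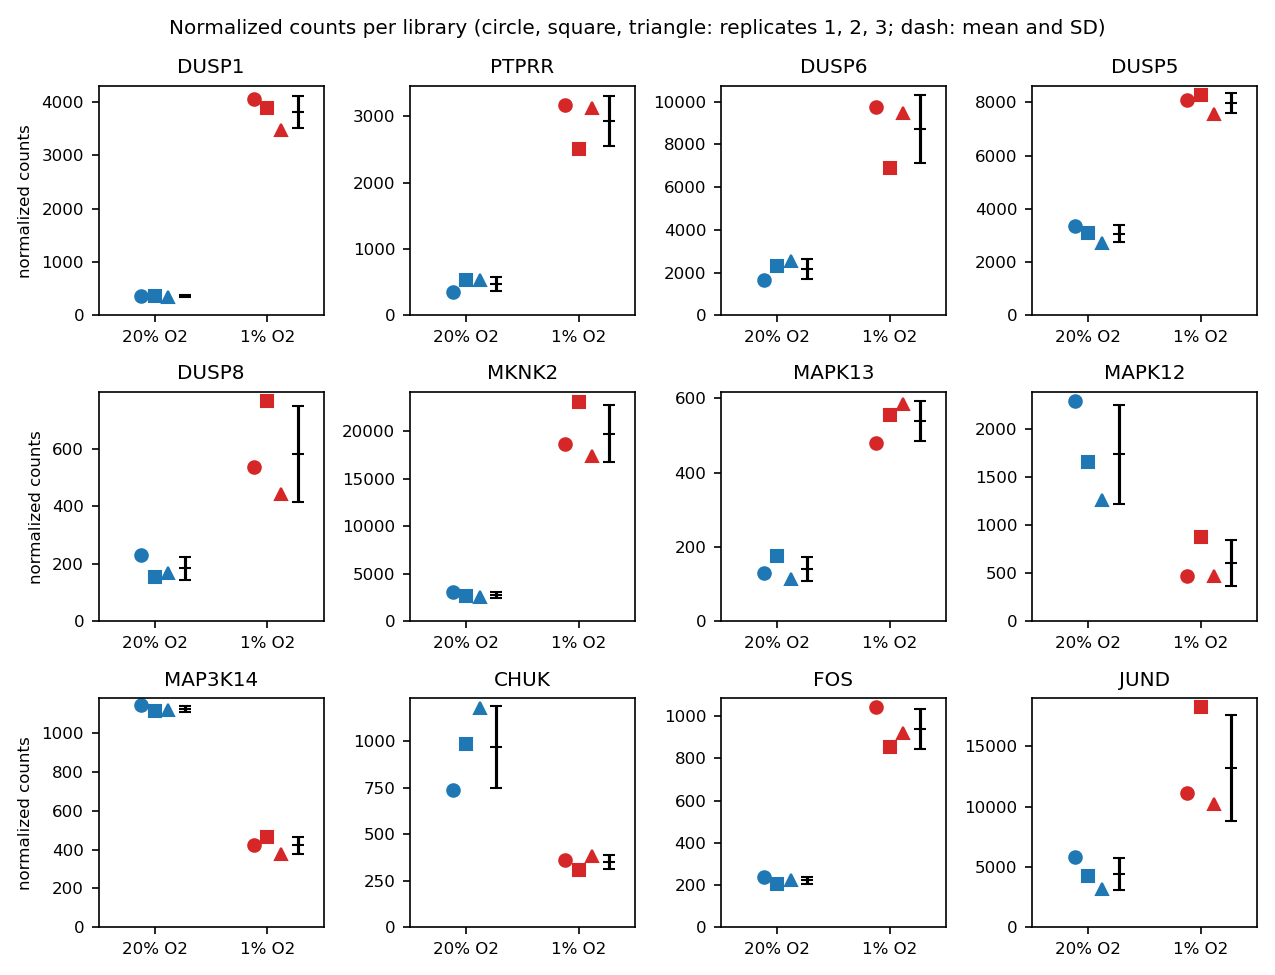
Normalized counts (y axis, from 0) in each library at 20% oxygen (blue) and 1% oxygen (red) for 12 members. Symbols mark replicates 1 to 3 and the dash with its bar is the mean and SD (n = 3). DUSP1 rises from 339 to 370 up to 3469 to 4058, and MAPK13 and MAPK12 move in opposite directions.

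Beside 56.7% of all tested entries, all 5 phosphatases with an entry were higher at 1% oxygen. They cover each class of MAP kinase: DUSP5 (nuclear) and DUSP6 (cytoplasmic) act mainly on ERK, DUSP8 on JNK and p38, DUSP1 on all 3, and PTPRR is a tyrosine phosphatase that docks on ERK and p38. DUSP1 (chromosome 5, 172768090 to 172771195) had 370, 370 and 339 normalized counts in normoxia and 4058, 3884 and 3469 in hypoxia, 10.6-fold higher and the largest rise of any member (log2 fold change 3.40, SE 0.14, adjusted p = 3.32e-06). PTPRR had 349, 532 and 532 in normoxia and 3173, 2499 and 3121 in hypoxia (2.64, SE 0.21, adjusted p = 2.87e-05). For either gene every hypoxia library was far above every normoxia library, and the normoxia libraries of DUSP1 lay closer together (SD 0.072 on the log2 scale) than those of PTPRR (0.35).

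DUSP6 had 1664, 2311 and 2549 normalized counts in normoxia and 9770, 6891 and 9488 in hypoxia (4.01-fold higher, SE of the log2 fold change 0.21, adjusted p = 8.25e-05). DUSP8 had 230, 156 and 168 in normoxia and 535, 765 and 441 in hypoxia (1.65, SE 0.27, adjusted p = 0.000576). DUSP5 rose from 3061 ± 317 to 7967 ± 362 (mean ± SD, n = 3; log2 fold change 1.38, SE 0.13, adjusted p = 5.06e-05). No phosphatase had overlapping groups, which also held for 99.6% of all entries. Exons of AC024909.2 on the opposite strand cover 40.5% of those of DUSP6, so part of its reads cannot be assigned without strand. The list holds 22 phosphatase genes, and 17 had no entry.

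Of 9 transcription factors and stress effectors, 8 were higher and 1 lower, beside 56.7% of all tested entries higher. FOS, the immediate early partner in the AP-1 factor, had 238, 204 and 227 normalized counts in normoxia and 1044, 853 and 922 in hypoxia, 4.22-fold higher (log2 fold change 2.08, SE 0.17, adjusted p = 2.76e-05). JUND, another AP-1 subunit, had 5814, 4257 and 3192 in normoxia and 11104, 18248 and 10212 in hypoxia (1.58, SE 0.29, adjusted p = 0.0011). With 69.7% GC, JUND was highest in normoxia replicate 1 and hypoxia replicate 2. MEF2C, a factor that p38 and ERK5 phosphorylate, had 46.3, 77.4 and 93.9 in normoxia and 334, 213 and 384 in hypoxia (2.10, SE 0.34, adjusted p = 0.000575). FOXO4, a forkhead factor held in the cytoplasm by AKT, had 136, 162 and 164 in normoxia and 530, 364 and 492 in hypoxia (1.58, SE 0.22, adjusted p = 0.000253). None of these 4 overlapped between groups, as for 99.6% of all entries.

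NR4A1, an orphan nuclear receptor of the immediate early class, had 130 ± 26.4 normalized counts in normoxia and 370 ± 21.8 in hypoxia (mean ± SD, n = 3; log2 fold change 1.51, SE 0.22), with 10.3% of its exons under those of AC025259.3 on the opposite strand. ETS1, an ERK-regulated factor, had a narrow gap between groups, 1307 for the highest normoxia and 1382 for the lowest hypoxia library (1.06, SE 0.31, adjusted p = 0.0106), and its call ended in limma on log2 FPKM (adjusted p = 0.152 with a pseudocount of 0.1, range over its alternatives 0.000368 to 0.424). DDIT3 (CHOP), a factor of the endoplasmic reticulum stress response, rose from 880 ± 198 to 1821 ± 418 (1.05, SE 0.23), with 31.6% of its exons under those of MARS on the opposite strand. The 2 chaperones of the HSP70 family went apart, HSPA1L from 39.2 ± 12.7 to 87.7 ± 10.1 (1.16, SE 0.30) and HSPA6 from 56.3 ± 20.0 to 11.6 ± 10.5 normalized counts. HSPA6 fell by 2.31 on the log2 scale (SE 0.59), with a log2 fold change of -3.32 without hypoxia replicate 2. Its transcript shares 45.5% of stretches of 50 bases with other genes, mostly HSPA7. The calls of ETS1, DDIT3 and HSPA1L ended with TMM and with median-ratio size factors over the listed entries.

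Phospholipases, a G protein subunit and calcium channel subunits made up 7 members, 6 higher and 1 lower, beside 56.7% of all tested entries higher. Their median log2 fold change was 1.15, beside 1.11 over all entries. The channel genes encode auxiliary subunits, and 2 related gamma subunits went apart. CACNG7 had 473, 235 and 331 normalized counts in normoxia and 938, 1094 and 951 in hypoxia (1.52, SE 0.26, adjusted p = 0.000688), while CACNG4 had 90.8, 86.2 and 93.9 in normoxia and 23.1, 54.5 and 24.1 in hypoxia (fell by 1.42, SE 0.37, adjusted p = 0.0057). CACNA2D3 and CACNB1 rose by 1.15 and 1.06. PLA2G6, a phospholipase A2 that needs no calcium (22.5% of its exons lie under AL022322.2 on the opposite strand), had 169, 202 and 172 in normoxia and 430, 659 and 400 in hypoxia (1.45, SE 0.24). PLD2, which makes the lipid messenger phosphatidic acid, rose 2.08-fold. GNG11, a gamma subunit of heterotrimeric G proteins, had 343, 302 and 230 in normoxia and 728, 722 and 679 in hypoxia (1.28, SE 0.19, adjusted p = 0.000384). Of these 7, the groups of each were apart, as for 99.6% of all entries, with CACNG4 the lower at 1% oxygen. Calls of CACNA2D3, CACNB1 and PLD2 ended with median-ratio size factors, and that of CACNB1 also with TMM.

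Besides RASA4B, 5 members stood outside the role lists, and for some of them the deposited annotation is loose. The best KEGG match was a human gene for 30 of the 45 members and a gene of another species for 15. ISOC1, an isochorismatase domain protein, was placed in the MAPK pathway through a match to a nematode MAP kinase kinase with an E-value of 3.7e-12, and TPBG, an oncofetal surface protein with leucine-rich repeats, through a match to an aphid protein with an E-value of 3.1e-09. CNKSR2, a scaffold that binds Ras pathway proteins, was also matched to an aphid gene. ISOC1 had 652, 825 and 765 normalized counts in normoxia and 285, 258 and 265 in hypoxia (fell by 1.47, SE 0.17), TPBG rose 2.39-fold and CNKSR2 fell by 1.01 (SE 0.28). Without these 3, 34 members were higher and 8 lower, beside 56.7% of all tested entries higher, a count added after seeing the data. LAT, an adaptor best known from T cells, had 1810, 1245 and 1005 in normoxia and 2924, 4879 and 2826 in hypoxia (1.39, SE 0.29, adjusted p = 0.00199). Of its longest transcript, 20.5% of stretches of 50 bases are shared with other genes, and 10.2% of its exons lie under AC109460.4 on the opposite strand. PROCA1, matched as a secretory phospholipase A2, had 94.6, 90.2 and 55.1 in normoxia and 174, 511 and 219 in hypoxia (1.91, SE 0.45), and its log2 fold change was 1.30 without hypoxia replicate 2.

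**Figure D4:**
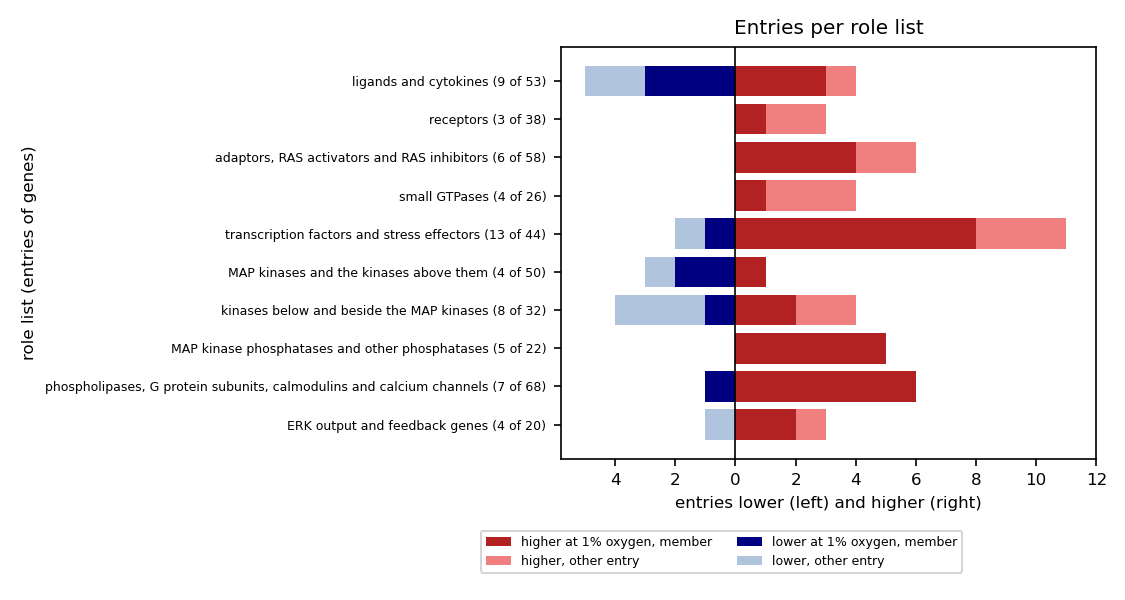
Number of entries per role list that were higher (right, red) or lower (left, blue) at 1% oxygen, with members in dark and other entries of the list in pale colour. Brackets give entries out of genes on the list, such as 5 of 22 phosphatases, all higher, beside 56.7% of all tested entries. Genes without an entry are not drawn.

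The wider pathways were read from 404 genes in lists of the same roles, of which 61 had an entry, 45 higher and 16 lower. Of these 61, the 22 that are no members numbered 14 higher and 8 lower. Beside each split in this paragraph stand 56.7% higher and 43.3% lower of all tested entries, and no test compares them. Most of the 22 are named in this paragraph and the account of ERK outputs. Receptors EGFR and INSR rose by 1.18 and 1.14 on the log2 scale, and the Ras-related GTPase RRAS had 1297 ± 445 normalized counts in normoxia and 8001 ± 3409.9 in hypoxia (mean ± SD, n = 3; log2 fold change 2.62, SE 0.36). The GTPases RAC2 and RAC1 rose by 1.75 and 1.24, and the receptor adaptor SHC2 by 2.77. The growth factors NRG1 and FGF2 fell by 1.23 and 2.24 and FGF11 rose by 2.36. MAP2K3, which activates p38 kinases, went from 3906 ± 577 to 1658 ± 200 (fell by 1.24, SE 0.16), so the list of MAP kinases and the kinases above them had 1 higher and 3 lower of 4 entries among 50 genes. The AP-1 genes JUN and JUNB rose by 1.26 and 1.40, GADD45B, a stress sensor that activates the p38 and JNK branch, by 2.46, and LMNB2 fell by 1.07. Of kinases below and beside the MAP kinases, PIK3CD rose by 2.01, and PRKCB, PIK3R3 and TXK fell by 1.28, 1.71 and 1.77.

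A list of 20 genes known as outputs or feedback inhibitors of ERK had 4 entries, 3 higher and 1 lower. Of all tested entries, 56.7% were higher, and 4 entries are too few to set against that share. The entries differ within the immediate early class. DUSP6 was 4.01-fold, DUSP5 2.60-fold and IER3 2.56-fold higher. EGR1, a zinc finger factor that serum and ERK induce, had 1047, 1292 and 1244 normalized counts in normoxia and 435, 345 and 490 in hypoxia (a fold of 0.354, SE of the log2 fold change 0.18, adjusted p = 0.000155). FOS, JUN, JUNB and NR4A1, immediate early genes as well, were higher in the same libraries. The Sprouty and SPRED inhibitors and the ETV factors on the list had no entry.

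Levels per length spanned a wide range. In the authors' FPKM, group means of members ran from 0.0746 (RPS6KA6) to 70.4 (JUND) in normoxia and from 0.0675 (ANGPT1) to 199 (MKNK2) in hypoxia, with medians of 5.19 and 7.05 beside 5.10 and 4.53 over all entries. JUND, MKNK2 and DUSP5 (35.8 ± 1.40) were the top 3 in normoxia, and DUSP5 and MKNK2 overlap within their SD. In hypoxia MKNK2 (199 ± 9.11) and JUND (173 ± 39.6) were also within an SD of each other, ahead of RASA4B (95.5 ± 15.7). DUSP1 moved from rank 22 (5.34 ± 0.233) to rank 11 (47.0 ± 4.91), and CSF1 from rank 4 (30.9 ± 2.73) to rank 17 (12.5 ± 0.889). Against normalized counts, log2 fold changes from FPKM were shifted by -0.28 (median over all entries).

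**Figure D5:**
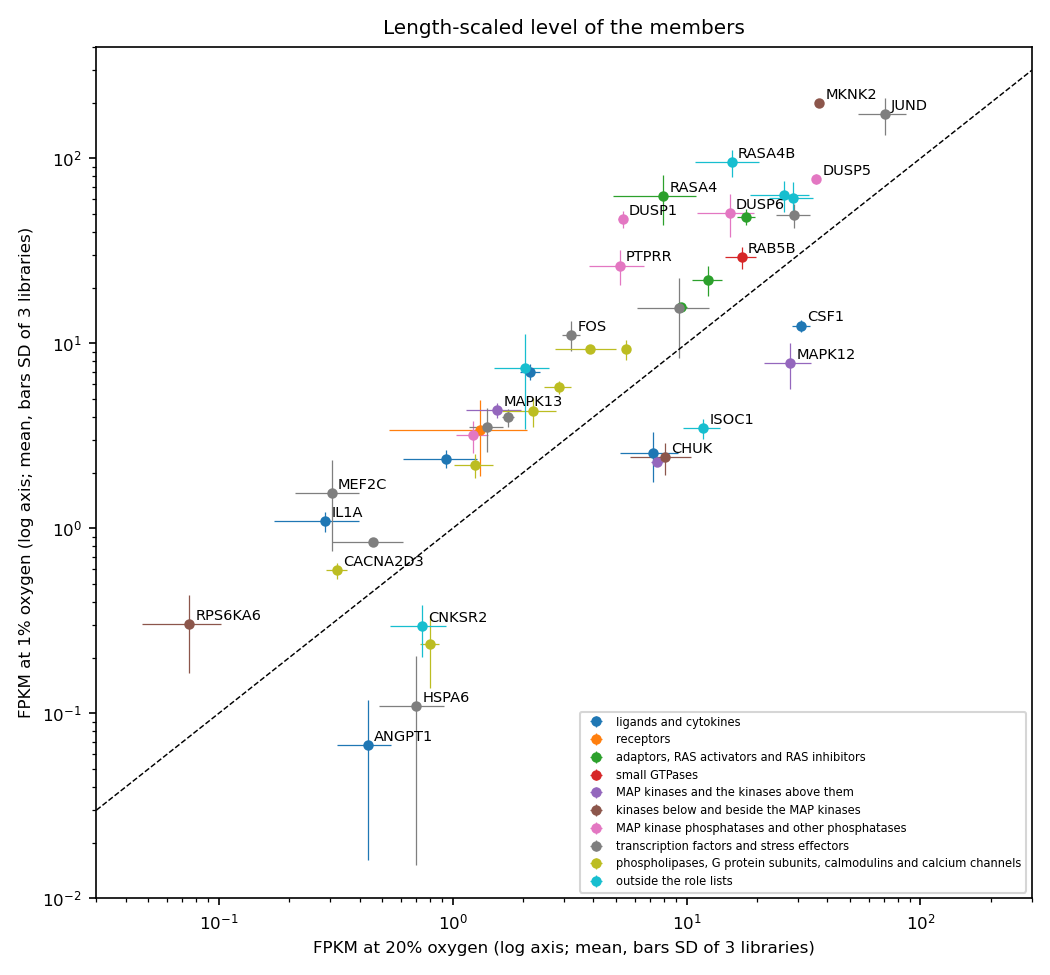
Authors' FPKM at 20% oxygen (x axis) and 1% oxygen (y axis), log axes, for the 45 members, as means with SD of 3 libraries and coloured by role. Members above the dashed line of equality are higher at 1% oxygen; MKNK2 and JUND are at the upper right, ANGPT1 and HSPA6 at the lower end.

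Promoter letters were read for the 36 members that RefSeq's table (GRCh38.p14) holds, at 1 start per gene. Windows ran from 250 bases before to 50 bases after that start and were compared with 27305 promoters of the same length. No promoter was read for ANGPT1, CACNG4, CACNG7, CSF1, DUSP5, ETS1, RASA4, RASA4B and TRADD. The start used can lie inside a gene: the window of PTPRR (minus strand) spans 70754559 to 70754858, while the gene in GENCODE 29 runs to 70920843. The cyclic AMP response palindrome TGACGTCA, bound by CREB and ATF factors and its own reverse complement, was in 4 of the 29 promoters of higher members (13.8%) and in 0 of 7 of lower members, beside 2.72% of promoters of all higher entries, 4.02% of all lower entries and 1.98% of all promoters. These 4 are DUSP1, DUSP8, JUND and MAPK8IP3. The hypoxia response core ACGTG, on either strand, was in 20.7% of higher and 28.6% of lower members' promoters, beside 268 of 994 promoters of all higher entries, 28.5% of all lower entries and 21.6% of all promoters. The variant GCGTG was in 51.7% of higher and 57.1% of lower members' promoters, beside 43.6% of all higher entries, 58.3% of all lower entries and 36.3% of all promoters. The pattern TGANTCA is looser than the AP-1 site, which has C or G at N. It was in 17.2% of higher and 14.3% of lower members' promoters. The shares were 7.85% of all higher entries, 4.25% of all lower entries and 7.76% of all promoters. The 7 promoters of lower members are few, and 1 match moves their share widely. A CACGTG run counts on both strands of ACGTG, and TGACGTCA overlaps none of the others in full. The CArG box pattern of serum response factor was matched in 1 of 36 members (2.78%), MKNK2, beside 1.29% of all promoters. That match, CCTATAAAGG, contains the TATA box letters TATAAA, so the letters cannot say which element it is. Motifs are letters in a window, not shown to be bound.

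The 250 bases before the start are shown for the 4 promoters with TGACGTCA, and for MKNK2 as the kinase with the largest rise, chosen after the motifs were counted. They are at chr5:172771196-172771445 (minus strand), chr11:1572272-1572521 (minus), chr19:18281623-18281872 (minus), chr16:1705945-1706194 (plus) and chr19:2051245-2051494 (minus), each written 5′ to 3′ with the motifs above in capitals.
DUSP1: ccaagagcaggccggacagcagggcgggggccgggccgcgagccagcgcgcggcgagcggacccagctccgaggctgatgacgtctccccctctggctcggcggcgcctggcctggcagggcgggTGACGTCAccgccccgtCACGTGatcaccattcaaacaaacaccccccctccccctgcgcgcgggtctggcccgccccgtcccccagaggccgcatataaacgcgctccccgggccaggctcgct
DUSP8: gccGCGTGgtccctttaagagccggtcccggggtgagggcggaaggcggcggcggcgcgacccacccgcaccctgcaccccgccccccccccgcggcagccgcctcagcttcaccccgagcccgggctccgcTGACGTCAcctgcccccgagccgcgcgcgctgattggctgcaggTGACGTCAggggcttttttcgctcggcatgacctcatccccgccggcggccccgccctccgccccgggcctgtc
JUND: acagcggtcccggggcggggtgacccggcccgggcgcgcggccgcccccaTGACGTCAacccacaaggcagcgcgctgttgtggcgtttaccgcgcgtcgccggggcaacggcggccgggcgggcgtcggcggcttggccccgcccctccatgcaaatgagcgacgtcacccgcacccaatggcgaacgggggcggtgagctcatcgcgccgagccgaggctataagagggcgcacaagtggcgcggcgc
MAPK8IP3: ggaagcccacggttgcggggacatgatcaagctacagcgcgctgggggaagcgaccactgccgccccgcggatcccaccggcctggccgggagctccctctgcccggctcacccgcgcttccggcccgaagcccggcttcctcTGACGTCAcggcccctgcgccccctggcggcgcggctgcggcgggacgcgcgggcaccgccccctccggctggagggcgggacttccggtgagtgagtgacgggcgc
MKNK2: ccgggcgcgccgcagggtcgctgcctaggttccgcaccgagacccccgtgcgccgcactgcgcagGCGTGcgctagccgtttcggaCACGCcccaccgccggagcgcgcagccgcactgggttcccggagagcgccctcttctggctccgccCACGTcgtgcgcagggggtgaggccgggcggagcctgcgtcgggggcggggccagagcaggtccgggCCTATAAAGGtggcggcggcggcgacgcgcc
In DUSP1 the palindrome starts at position -125 from the start and a CACGTG run follows at -108. DUSP8 holds the palindrome at -118 and again at -74, JUND holds it at -200 and MAPK8IP3 at -107. In MKNK2 the capitals mark GCGTG on either strand at -185 and -164, ACGTG on the minus strand at -98 and the CArG match at -31.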

How the data were processed

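The authors deposited a table with whole-number counts, FPKM values, an adjusted p-value (FDR) and a log2 fold change per entry, per the file headers, for 3 samples at 20% and 3 at 1% oxygen. Per the labels' protocols, libraries were made with a SMARTER mRNA-seq kit. The sources used here do not give the aligner, counter, annotation, build or strand use. Sample columns were matched to titles by oxygen level and number.

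Counts were tested with edgeR 4.0.16 (R 4.3.3), quasi-likelihood, two-sided, over 2675 entries with Benjamini-Hochberg adjustment, filterByExpr (0 removed) and no replicate block. Library scales were recovered from the deposited log2 fold changes of 1442 entries above 200 counts per library (median absolute residual 0.000202), since TMM assumes that most entries do not change. They were 1.06, 1.02 and 1.11 in normoxia and 0.994, 0.844 and 0.997 in hypoxia replicates 1 to 3, so the fold changes do not check the authors' scale. Another 6 entries, none a member, deviated from their own counts by more than 1 on the log2 scale and were left out, and 2 lines held no values. Each SE was obtained by dividing the size of the log2 fold change by the root of its F statistic. DESeq2 1.42.0 and limma 3.58.1 served as alternatives. The scale recovery and the edgeR test were also run on simulated data. Only some entries were changed in the simulated counts for edgeR, unlike the listed entries here. These runs check the code and lend the results no support. GC content, coordinates and shared stretches of 50 bases come from GENCODE 29 transcripts, matched by gene ID for all 45 members. Libraries of a group all differed beyond sampling noise (chi-square 13.1 to 268 times its degrees of freedom).

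Members and lists were chosen with earlier results of these data known. Values per library are given for up to 4 members of each role list with the largest absolute change, a mean of at least 50 normalized counts and no overlap between groups. Values of some listed genes that are no members are not reported here.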

Additional observations from a re-analysis of the deposited data

How the results depend on the processing

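Members numbered 35 higher and 10 lower with DESeq2, without a filter, with the replicate block, without each replicate in turn (35 to 35 higher, 10 to 10 lower) and with GC trends removed. These counts say little about stability, since every entry was selected as changed and removing trends inside a group leaves its mean in place. Whether replicate numbers pair the samples is not labelled. Same-numbered libraries deviated together at r = -0.39, -0.13 and 0.49, but these deviations also follow the GC trends, so they cannot decide it. The replicate block moved no count (1518 entries higher and 1157 lower), which cannot decide it either, since all entries were selected as changed. Leaving out a replicate gave 1509 to 1518 entries higher and 1154 to 1157 lower.

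TMM and median-ratio size factors over the listed entries moved all fold changes by a median of -0.53 and -0.78 on the log2 scale. TMM left 31 members called higher, without HSPA1L, CACNB1, ETS1 and DDIT3, and median-ratio size factors left 25, also without IL1RAP, CACNA2D3, TRADD, RAB5B, PLD2 and RGL2, with 997 entries higher. No member reversed. Limma on log2 FPKM with pseudocounts of 0.1 and 1 called 34 members higher and 10 lower, without ETS1. A pseudocount of 1 shrinks members with low FPKM (RPS6KA6 to 0.27). A minimum mean of 50 normalized counts removed 2 members, ANGPT1 and HSPA6, leaving 35 higher and 8 lower.

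Membership changed counts by its construction: Ras signaling alone gave 12 higher and 3 lower, MAPK signaling alone 24 and 10 (the fly pathway's TPBG and CNKSR2 included, otherwise 23 and 9), and no excluded pathway 52 and 12. The depth of the whole libraries is unknown. The largest SEs on the log2 scale were those of HSPA6 (0.59), RASA4 (0.58) and ANGPT1 (0.48).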
